A study of Mus musculus with 28 samples.

Results

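RNA and promoter marks of 10 genes of the H3K9 methylation machinery were followed in mouse gonads at E13.5 (E, embryonic day): the methyltransferases Setdb1, Setdb2, Suv39h1, Suv39h2, Ehmt1 and Ehmt2, the corepressor Trim28 (KAP1), the SETDB1 partner Atf7ip, and the heterochromatin proteins Cbx1 (HP1 beta) and Cbx5 (HP1 alpha). They were taken by gene name from the deposited RNA and promoter tables, where they fill 11 of 22138 rows in each table, because Atf7ip has 2 Ensembl entries. All 11 rows passed the filter on low values and were among the 13518 genes tested. Primordial germ cells, the precursors of sperm and eggs, were sorted as cells carrying the surface antigen SSEA1, and the cells without it were kept as gonadal soma. Setdb1 knockout germ cells (KO) had the genotype Setdb1 delta/-. Control germ cells were Het1 (Setdb1 delta/+) and Het2 (Setdb1 flox/-), pooled here as Het. The wild-type germ cells of the cross (WT) were Setdb1 flox/+, and further germ cells and soma came from C57BL/6 wild-type males. Each sex had 4 Het, 2 KO and 1 WT RNA library, and C57BL/6 males gave 1 library of germ cells and 1 of soma. Promoter values come from chromatin immunoprecipitation (ChIP), with 1 library per mark, sex and genotype; Het is flox/- there. The Cre line, the exons removed by the deletion and whether a library came from 1 embryo or a pool are not stated, so p-values measure only the spread between libraries.

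Trimethylation of lysine 9 on histone H3 marks silent chromatin, and it is written by several enzymes with different partners. KRAB zinc finger proteins recruit TRIM28 to DNA, TRIM28 brings in SETDB1, and ATF7IP binds SETDB1 and protects it from degradation. In germ cells and embryonic stem cells this route is known for silencing endogenous retroviruses. SUV39H1 and SUV39H2 trimethylate H3K9 mainly at pericentromeric repeats, EHMT1 (GLP) and EHMT2 (G9a) act as a pair that writes H3K9me1 and H3K9me2, and HP1 proteins bind the methylated lysine.

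Of the members, Atf7ip and Suv39h1 each had the highest promoter value in 1 or more of the Het histone mark libraries described further on. Their promoter sequences are shown together with that of Setdb1, which the deletion concerns. They come from RefSeq (build GRCm38.p6), run from 250 bases before to 50 bases after the annotated start, and are written 5′ to 3′ on the gene's strand with every CpG in capitals. CpG is the dinucleotide at which mouse DNA is methylated. The RefSeq start may differ from the Ensembl start in mm9 on which the histone mark values rest. Setdb1 lies at chr3:95357153-95357452 (minus strand), Atf7ip at chr6:136518601-136518900 (plus strand), and Suv39h1 has 2 starts, at chrX:8074711-8075010 and chrX:8074312-8074611 (minus strand).
Setdb1: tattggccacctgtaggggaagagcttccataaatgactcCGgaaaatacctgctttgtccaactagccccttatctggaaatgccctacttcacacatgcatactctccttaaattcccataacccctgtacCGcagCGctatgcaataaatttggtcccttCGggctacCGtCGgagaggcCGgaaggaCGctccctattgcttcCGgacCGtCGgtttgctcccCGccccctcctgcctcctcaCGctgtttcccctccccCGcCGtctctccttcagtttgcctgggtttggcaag
Atf7ip: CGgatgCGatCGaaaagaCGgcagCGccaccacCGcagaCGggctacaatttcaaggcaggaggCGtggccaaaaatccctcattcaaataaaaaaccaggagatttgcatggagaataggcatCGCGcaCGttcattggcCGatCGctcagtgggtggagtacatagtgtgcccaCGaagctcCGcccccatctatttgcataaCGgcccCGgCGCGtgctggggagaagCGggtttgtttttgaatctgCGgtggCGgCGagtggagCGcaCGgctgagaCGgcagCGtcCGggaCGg
Suv39h1, start 1: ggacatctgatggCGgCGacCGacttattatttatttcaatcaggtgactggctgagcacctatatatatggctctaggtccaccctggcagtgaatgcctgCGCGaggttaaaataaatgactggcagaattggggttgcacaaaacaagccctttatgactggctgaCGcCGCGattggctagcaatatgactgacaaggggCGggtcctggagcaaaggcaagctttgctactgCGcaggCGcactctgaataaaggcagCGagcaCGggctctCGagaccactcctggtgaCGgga
Suv39h1, start 2: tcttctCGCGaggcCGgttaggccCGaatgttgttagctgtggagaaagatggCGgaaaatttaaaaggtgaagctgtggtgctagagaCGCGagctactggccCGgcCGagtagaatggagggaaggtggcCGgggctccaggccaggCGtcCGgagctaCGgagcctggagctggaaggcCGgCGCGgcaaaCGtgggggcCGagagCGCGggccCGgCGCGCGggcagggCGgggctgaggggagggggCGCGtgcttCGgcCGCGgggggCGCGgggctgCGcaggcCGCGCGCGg
The Setdb1 window holds 15 CpGs and the Atf7ip window 29. The Suv39h1 windows hold 15 and 37. Across all 13 windows of the 10 genes the number ran from 8 to 40, against a median of 7 over 32851 RefSeq promoters. The GC box GGGCGG, searched on both strands like every motif here, was in 12 of the 13 windows and in 35.7% of all promoters. The CCAAT box CCAAT was in 5 of the 13 and in 37.4% of all promoters, and the TATA box TATAAA was in none of the 13 and in 13.6% of all promoters. The ETS core CCGGAAG (8.86% of all promoters) was found only at Setdb1, and the cyclic AMP element TGACGTCA (1.79%) only at Suv39h2. The E2F motif TTCCCGCC (2.19%) was found at Suv39h2 and Trim28. Sites of different motifs may overlap, and a match describes letters only.

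RNA was given as RPKM, reads per kilobase of gene scaled to library size, so that levels of different genes can be set side by side per length. Library depth is unknown. Summed RPKM of 7 germ cell markers stood at 1272 to 2105 in the Het libraries and at 14.89 in soma. Female KO libraries lay lower, at 866.38 and 1178 RPKM, but none of the 7 markers was called between female KO and Het. Y-linked RNA was at or near 0 in every female library and at 72.08 to 102.67 RPKM in the males of the cross. Summed RPKM of 5 Leydig markers was 56.14 and 26.87 in male KO against 3.42 to 5.32 in male Het, 19.84 in male WT, 11.74 in C57BL/6 germ cells and 674.09 in soma, and 4 of the 5 were called higher in male KO (Cyp17a1, Hsd3b1, Cyp11a1 and Insl3, not Star). Summed RPKM of 5 stromal markers was 37.25 and 31.8 in female KO against 11.87 to 26.5 in female Het, 28.26 in female WT and 989.01 in soma. None of the 5 was called in females. Both female KO libraries were also above female Het for pregranulosa markers (12.81 and 10.49 against 4.65 to 8.49). The same held for Sertoli markers (5.71 and 6.26 against 1.99 to 4.19, with female WT at 5.49). Leydig, endothelial, macrophage and erythroid sums overlapped between female KO and Het. Female Het2 replicate 1 stood apart from the other 3 female Het libraries, with 749.88 RPKM over 3 genes of meiotic entry against 180.54 to 338.74, and 257.4 RPKM over 4 erythroid genes against 1.78 to 3.77. Male Het1 replicate 1 and male KO replicate 1 had the highest summed RPKM of the male germ cell genes Nanos2 and Dnmt3l, 58.83 and 37.32, against 1.59 to 9.11 in the other male Het and KO libraries. The part of these differences in the results below was not tested, beyond leaving each library out.

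Setdb1, the gene that was deleted, had less RNA in KO than in any Het library of the same sex. In males it was at 48.97 and 37.53 RPKM in Het1, 45.83 and 52.05 in Het2, and 27.11 and 31.20 in KO. In females it was at 42.52 and 43.22 RPKM in Het1, 58.89 and 38.24 in Het2, and 34.65 and 31.28 in KO. The groups did not overlap in either sex, and KO kept 63.2% of the Het mean in males and 72.1% in females. Of all genes tested, 0.466% had KO libraries below every Het library in both sexes, and Setdb1 was the only one of the 11 rows to do so. On the log2(RPKM + 1) scale the KO minus Het difference was -0.64 (SE 0.18) in males, -0.44 (SE 0.18) in females and -0.54 (SE 0.13) over both sexes. With limma, a linear model per gene with a spread shared across genes, and Benjamini-Hochberg adjustment over all genes these gave adjusted p = 0.322, 0.337 and 0.0783, so none passed the threshold of 0.05. The call over both sexes was close: it passed with medians centred (-0.64, adjusted p = 0.0425), with the WT libraries added to the controls (-0.57, adjusted p = 0.0325) and without female Het2 replicate 1 (-0.48, adjusted p = 0.0459). It failed in the other 17 of 20 alternatives. Among these, limma gave adjusted p = 0.0509 with the replicate number as a block and 0.378 with Het1 alone as control. The C57BL/6 soma library was at 32.98 RPKM, above both male KO libraries and below every male Het library. The RPKM covers the whole gene, so any RNA of the deleted allele that kept its other exons would be counted, and the value is no measure of SETDB1 protein. Why KO kept this much Setdb1 RNA was not tested.

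Single controls placed the Het level of Setdb1 RNA further. The WT library was at 55.43 RPKM in males, above all 4 male Het libraries, and at 45.30 in females, within the range of female Het. Het1, which carries the deleted allele over a wild-type one, and Het2, which carries a floxed allele over a null, differed by -0.16 (SE 0.16) on the log2 scale with both sexes together (adjusted p = 1 by limma). In this contrast 0 of the 11 rows were called, beside 0.0148% of all genes (2 of 13518), and 0 had an unadjusted p under 0.05.

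**Figure D1:**
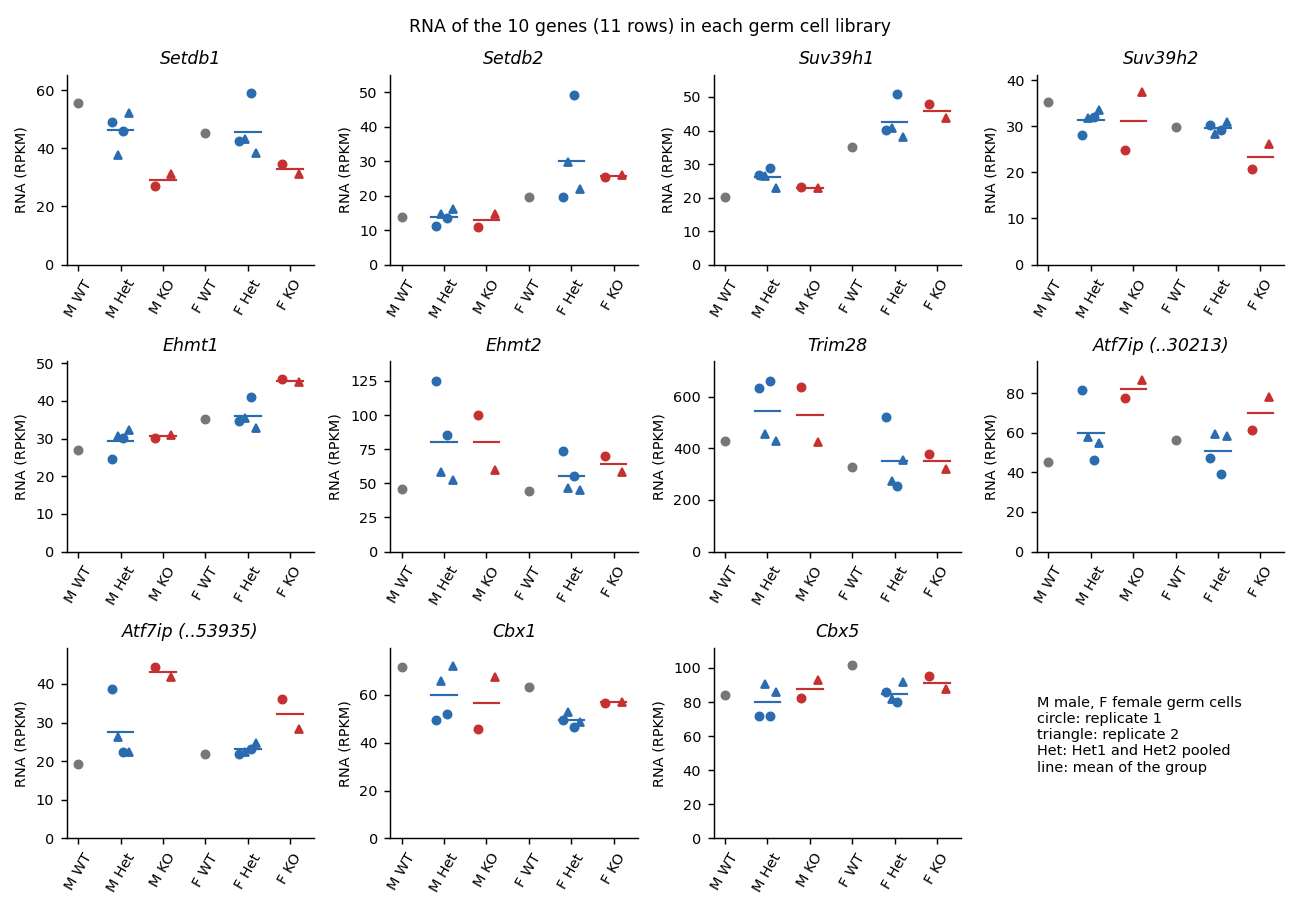
RNA of each of the 11 rows in RPKM (vertical axes start at 0) for every germ cell library of the cross, by sex and genotype; circles are replicate 1, triangles replicate 2, and lines are group means of Het and KO. Setdb1 KO libraries lie below all Het libraries of their sex, the second Atf7ip row lies above them, and Setdb2 and Suv39h1 are higher in female than in male Het.

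None of the 11 rows was called between KO and Het, with the called share of all genes at 0.614% in males, 0.407% in females and 1.04% over both sexes. The counts at an unadjusted p under 0.05 were 2 rows in males, 3 in females and 3 over both sexes, beside 4.55%, 12.4% and 12.6% of all genes. The members' median log2 difference over both sexes was 0.05, beside 0.05 for all genes tested. In males the KO pair lay above every Het library for 1 row and below for 1 row, which 9.01% and 4.13% of all genes did. In females the counts were 4 above and 2 below, beside 14.8% and 5.62% of all genes. The rows above in females were both Atf7ip rows, Ehmt1 and Cbx1, and those below were Setdb1 and Suv39h2. The KO and Het libraries overlapped for the other rows.

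Atf7ip, whose protein stabilises SETDB1, was the only other gene whose KO libraries all lay on the same side of the Het range in both sexes, here above it and not below as for Setdb1. Its second row (ENSMUSG00000053935) was at 38.69 and 26.38 RPKM in male Het1, 22.42 and 22.40 in male Het2, and 44.36 and 41.87 in male KO. Female values were 21.75 and 22.45 RPKM in Het1, 23.28 and 24.72 in Het2, and 36.09 and 28.26 in KO. Every KO library was above every Het library of its sex, an order that 3.06% of all genes showed in both sexes. The mean was 1.57-fold higher in male KO and 1.40-fold higher in female KO. Both sexes together gave 0.56 on the log2 scale (SE 0.14), with adjusted p = 0.0976 by limma, over the threshold. The C57BL/6 soma library, rich in the Leydig markers that were higher in male KO, was at 40.23 RPKM. That is above every male Het library and below both male KO libraries. The part of somatic cells in this difference was not tested. In males alone the row was not called either (0.67, SE 0.20, adjusted p = 0.394 by limma). Without male Het1 replicate 1, its highest Het library, the difference was 0.65 over both sexes with adjusted p = 0.0079 by limma. In males it was then 0.84 with adjusted p = 0.0205 by limma, so passing there depended on that 1 control library.

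The first Atf7ip row (ENSMUSG00000030213) was at 81.37 and 57.62 RPKM in male Het1, 46.35 and 54.84 in male Het2, and 77.54 and 86.49 in male KO. Male Het1 replicate 1 fell between the male KO libraries, so the groups overlapped. In females it was at 47.38 and 59.09 RPKM in Het1, 39.17 and 58.14 in Het2, and 61.58 and 78.03 in KO, with KO above every Het library. Both sexes together gave 0.46 on the log2 scale (SE 0.16) and adjusted p = 0.209 by limma, and the row passed in 0 of 20 alternatives. The Ensembl identifier of the second row was not among the reference names, and how reads were shared between these 2 entries of 1 gene name is not stated, so the rows are not independent measures of Atf7ip.

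Trim28, the corepressor that links zinc finger proteins to SETDB1, had the highest RNA of the 11 rows in every Het and KO group and stood above 99.8% of tested genes in male Het. In males it was at 632.50 and 455.23 RPKM in Het1, 662.35 and 429.91 in Het2, and 637.35 and 425.23 in KO. The female libraries held 521.06 and 273.72 RPKM in Het1, 253.93 and 356.41 in Het2, and 379.58 and 320.20 in KO. The KO and Het libraries overlapped in both sexes. KO minus Het was 0.00 on the log2 scale (SE 0.21) with both sexes together, with adjusted p = 0.998 by limma. Among male Het and KO libraries, each of the 3 numbered 1 was above each of the 3 numbered 2, by a mean of 0.56 on the log2 scale. Within a number the difference between KO and mean Het was -0.02 and -0.06. The male WT library, also numbered 1, was at 427.01 RPKM, among the values of the libraries numbered 2.

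Ehmt2 (G9a) had the same split by replicate number among male Het and KO libraries. It was at 124.91 and 58.22 RPKM in male Het1, 85.36 and 52.40 in male Het2, and 100.21 and 59.74 in male KO. In females it was at 73.47 and 46.82 RPKM in Het1, 54.99 and 45.43 in Het2, and 70.08 and 58.53 in KO. Het and KO libraries numbered 1 were higher by a mean of 0.84 on the log2 scale in males and 0.39 in females. The WT libraries, also numbered 1, were at 45.72 RPKM in males and 44.20 in females, below every Het and KO library of their sex. The 2 male libraries with the highest Ehmt2 were also the 2 with the highest Nanos2 and Dnmt3l sums given above, and the part of this in Ehmt2 was not tested. KO and Het overlapped in both sexes, and KO minus Het was 0.14 on the log2 scale (SE 0.23) over both, with adjusted p = 0.886 by limma.

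Ehmt1 (GLP), the partner of EHMT2, was at 24.52 and 30.68 RPKM in male Het1, 30.24 and 32.31 in male Het2, and 30.27 and 30.93 in male KO. Female libraries were at 34.59 and 35.42 RPKM in Het1, 41.03 and 32.73 in Het2, and 45.68 and 44.95 in KO. The male groups overlapped and both female KO libraries were above all female Het libraries. The female difference was 0.33 (SE 0.14, adjusted p = 0.371) and the male one 0.06 (SE 0.14, adjusted p = 1) by limma. The test of the difference between these sexes gave 0.27 (SE 0.20, adjusted p = 0.9998 by limma).

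Suv39h2, a writer of H3K9me3, was at 28.04 and 31.74 RPKM in male Het1, 31.91 and 33.47 in male Het2, and 24.80 and 37.31 in male KO. Females had 30.36 and 28.39 RPKM in Het1, 29.27 and 30.82 in Het2, and 20.76 and 26.05 in KO. Male KO libraries lay on either side of the Het range, and both female KO libraries were below it. The female difference was -0.34 (SE 0.17, adjusted p = 0.432 by limma). Summed germ cell markers were also lower in both female KO libraries, with no single marker called, as given above. In bulk samples fewer cells of a type and less RNA per cell cannot be told apart.

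For Suv39h1 the KO minus Het difference was -0.18 (SE 0.15) in males and 0.11 (SE 0.15) in females, and for Setdb2 it was -0.10 (SE 0.29) and -0.13 (SE 0.29), with adjusted p of 0.823 or more by limma in each. The HP1 genes bind the finished mark. Cbx1 was at 45.67 and 67.45 RPKM in male KO against 49.64 to 72.28 in male Het, and at 56.61 and 57.05 in female KO against 46.77 to 52.89 in female Het. Cbx5 was at 82.55 and 93.08 RPKM in male KO against 72.03 to 90.57 in Het, and at 95.25 and 87.42 in female KO against 80.09 to 91.71. Only the female Cbx1 groups did not overlap, and no HP1 difference passed, with 0.05 (SE 0.13) for Cbx1 and 0.12 (SE 0.10) for Cbx5 over both sexes. The test of a different KO effect between the sexes called 0 of 11 rows, beside 0.0518% of all genes (7 of 13518), and gave 0 rows at an unadjusted p under 0.05.

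**Figure D2:**
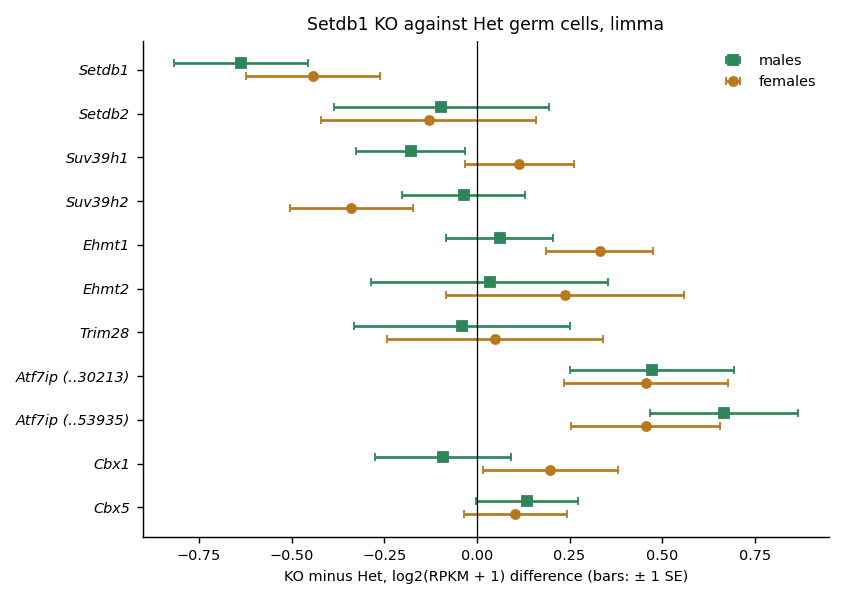
KO minus Het difference of the 11 rows on the log2(RPKM + 1) scale, for males (squares) and females (circles), with bars of 1 standard error from the limma fit. Setdb1 lies below 0 and both Atf7ip rows lie above 0 in both sexes; none passed the adjusted threshold.

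Some members did differ between the sexes. Between female and male Het germ cells 3 of the 11 rows were called, 2 higher and 1 lower in females, beside 31.9% of all genes tested (17.6% higher and 14.3% lower). The share of members is near that of all genes. Female germ cells at this age enter meiosis while male germ cells do not, and the 3 meiotic genes summed to 180.54 to 749.88 RPKM in female Het against 25.97 to 57.99 in male Het.

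Suv39h1, which lies on the X chromosome, was at 26.77, 26.33, 28.74 and 22.97 RPKM in male Het and at 40.04, 40.62, 50.96 and 38.17 in female Het. All female values were above all male ones, as were those of 17.3% of all genes. Among the members 3 rows had this order, Suv39h1, Setdb2 and Ehmt1, and the other 8 overlapped. The means, 26.2 ± 2.40 (SD, n = 4) and 42.4 ± 5.77 (SD, n = 4), differed 1.62-fold, and the log2 difference was 0.67 (SE 0.12, adjusted p = 0.00145 by limma). It passed in 19 of 20 alternatives, the exception being Het1 alone as control (0.59, adjusted p = 0.0587). The KO libraries, which are outside this contrast, were at 23.06 and 22.88 RPKM in males and 47.78 and 43.79 in females. WT stood at 20.22 in males and 34.95 in females.

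Setdb2, a relative of Setdb1, had the largest female to male ratio among the members. It was at 11.16, 14.55, 13.47 and 16.10 RPKM in male Het and at 19.68, 29.81, 49.13 and 21.97 in female Het, with no overlap. The means differed 2.18-fold, or by 0.99 on the log2 scale (SE 0.24), with adjusted p = 0.00742 by limma. The highest female value was that of Het2 replicate 1, and without that library the difference was 0.73 (adjusted p = 0.00845). It passed in 18 of 20 alternatives and in 12 of 12 that left out 1 library, and failed with Het1 alone (adjusted p = 0.0680) or Het2 alone (adjusted p = 0.0644) as control. KO libraries were at 11.01 and 14.75 RPKM in males and 25.43 and 26.07 in females, and WT at 13.68 and 19.51.

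Trim28 was lower in females, 351 ± 122 RPKM (SD, n = 4) against 545 ± 119 (SD, n = 4), and the libraries overlapped because female Het1 replicate 1 reached 521.06. The log2 difference was -0.67 (SE 0.24, adjusted p = 0.0487 by limma). This call depended on the processing and on single libraries. It passed in 8 of 20 alternatives and in 4 of 12 that left out 1 library, with adjusted p from 0.00897 (without female Het1 replicate 1) to 0.375 (Het1 alone as control). It was lost after quantile normalization (-0.38, adjusted p = 0.198), with no filter on low values (0.101) and with Het2 alone as control (0.110). It was also lost on leaving out male Het1 replicate 1 (0.111), male Het1 replicate 2 (0.0537), male Het2 replicate 1 (0.133), female Het1 replicate 2 (0.131), female Het2 replicate 1 (0.118), female Het2 replicate 2 (0.0729), female KO replicate 1 (0.0611) or female KO replicate 2 (0.0614), where each figure is the adjusted p.

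Ehmt1 was also higher in every female than in every male Het library, but its difference of 0.28 (SE 0.12, adjusted p = 0.0844 by limma) did not pass, except with WT added to the controls (0.30, adjusted p = 0.0274). Ehmt2 differed by -0.47 (SE 0.26, adjusted p = 0.188). With the replicate number as a block the same difference passed (SE 0.15, adjusted p = 0.0283 by limma), and without male Het1 replicate 1 it was -0.23 (adjusted p = 0.474). Setdb1 differed by -0.02 (SE 0.15, adjusted p = 0.932), with Het means of 46.1 and 45.7 RPKM in males and females. The remaining rows, Suv39h2, both Atf7ip rows, Cbx1 and Cbx5, lay between -0.26 and 0.09 and overlapped between the sexes.

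**Figure D3:**
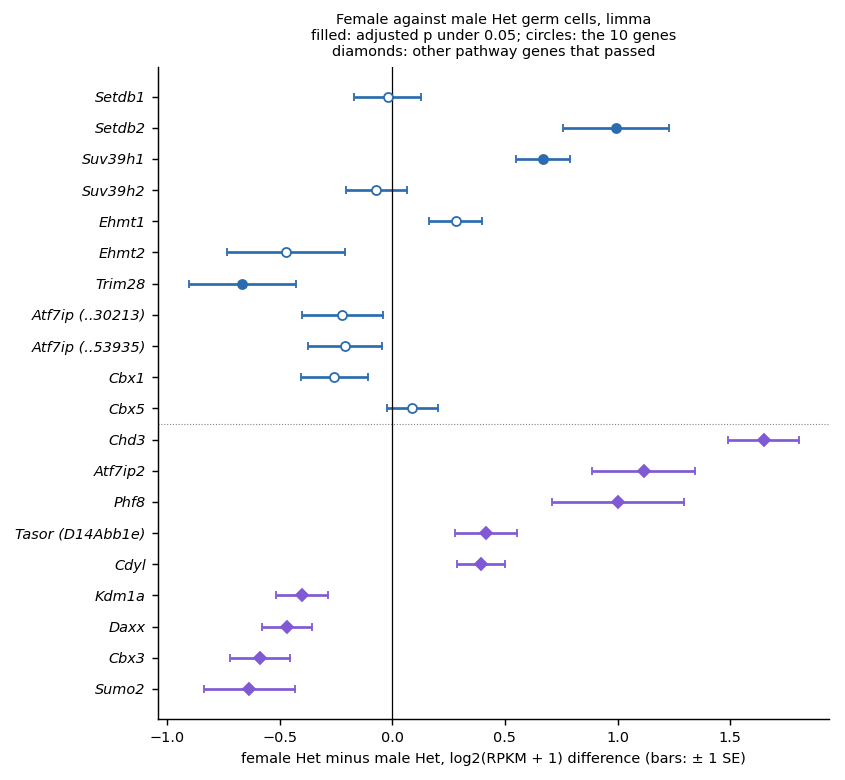
Female minus male difference between Het germ cells on the log2(RPKM + 1) scale, with bars of 1 standard error from the limma fit; circles are the 11 rows, diamonds the other pathway genes that passed, and filled symbols have an adjusted p under 0.05. Setdb2 and Suv39h1 lie to the right of 0 and Trim28 to the left, while Setdb1 is near 0.

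By level, the order of the members in male Het was Trim28, Ehmt2, Cbx5, the first Atf7ip row, Cbx1, Setdb1, Suv39h2, Ehmt1, the second Atf7ip row, Suv39h1 and Setdb2. Trim28 was 6.79-fold above the next gene. Neighbours overlapped over the 4 libraries except Trim28 with Ehmt2, Setdb1 with Suv39h2, and Suv39h1 with Setdb2. In female Het, Trim28 was 4.14-fold above Cbx5, which was the next, and did not overlap it. Cbx5 did not overlap Ehmt2 below it, and Suv39h2 did not overlap the second Atf7ip row, which was last, while all other neighbours overlapped. Setdb2 was last of the 11 in males, above 60.4% of tested genes, and the ninth in females, above 80.2%.

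C57BL/6 males allowed germ cells to be set beside soma, with 1 library each and so no test. Suv39h2 was at 32.62 RPKM in germ cells and 6.78 in soma, a ratio of 4.81. Setdb2 was at 12.92 and 3.81 (ratio 3.39), Trim28 at 628.83 and 189.00 (ratio 3.33) and Setdb1 at 72.61 and 32.98 (ratio 2.20). These 4 of 11 rows were past 2-fold higher in germ cells on the log2(RPKM + 1) scale, and none was past 2-fold lower, beside 17.6% and 28.7% of all genes. Suv39h1, at 24.61 and 15.49 RPKM, had a ratio of 1.59. Ehmt2 (84.63 and 69.80) and Cbx1 (55.36 and 48.08) were close to equal. The ratio was under 1 for Cbx5 (72.66 and 133.32 RPKM, 0.545), Ehmt1 (32.85 and 44.84, 0.733) and the Atf7ip rows (46.61 and 55.61, 0.838; 29.12 and 40.23, 0.724). Setdb1 and Trim28, which act in 1 complex, were thus both higher in the germ cell library, while Atf7ip was not.

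**Figure D4:**
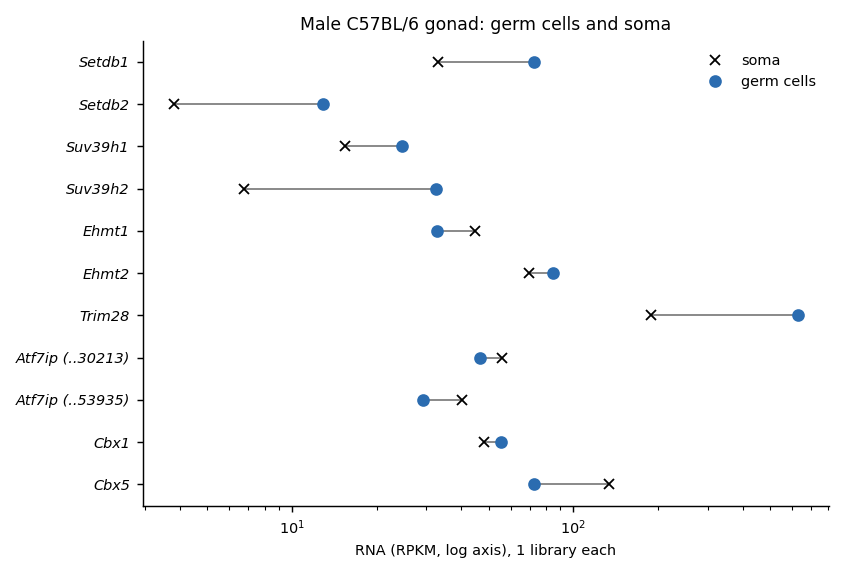
RNA of the 11 rows in RPKM on a log axis in C57BL/6 male soma (crosses) and germ cells (circles), 1 library each. Suv39h2, Setdb2, Trim28 and Setdb1 are more than 2-fold higher in germ cells and Cbx5 is higher in soma.

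The members' median promoter level was below that of all promoters for both repressive marks in all 8 germ cell libraries. Values are RPKM within 1 kb on either side of the Ensembl start, 1 library each, so differences have no replicate check and no p. The highest member value in any library was 0.855 for H3K9me3 (Trim28 in soma) and 0.411 for H3K27me3, the mark written by Polycomb complexes (Suv39h1 in female Het). The members' median for H3K9me3 was 0.051 in male Het and 0.133 in female Het, against 0.127 and 0.179 over all promoters, and for H3K27me3 it was 0.141 and 0.193 against 0.254 and 0.296. No member reached the level of RPKM 1 needed for the rule of a 2-fold change in both sexes, so 0 of 11 were called for either mark, beside 7.56% of the 238 promoters that reached it for H3K9me3 and 0.0556% of 1800 for H3K27me3. Few promoters of any gene reached it: 1.35% in male Het and 1.28% in female Het for H3K9me3, and 11.9% and 8.28% for H3K27me3. H3K9me3 was lower in KO than Het at 4 of 11 rows in males and 10 of 11 in females, beside 45.1% and 64.3% of all promoters. H3K27me3 was lower at 9 of 11 in each sex, beside 55.6% and 65.6%.

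The first Atf7ip row had the most H3K9me3 of the members in Het germ cells of both sexes, while in KO the highest was Setdb1 in males (0.205 RPKM) and Suv39h1 in females (0.311). The first Atf7ip row was at 0.567 RPKM in male Het and 0.111 in male KO, and at 0.385 in female Het and 0.265 in female KO. In male Het 6.83% of all promoters were as high or higher, and in male KO 57.5%. The male ratio after adding 0.1 was -1.66 on the log2 scale. Among promoters at 0.25 or more in male Het, 4.37% fell at least 2-fold, a comparison added after the values were seen. H3K27me3 at the same promoter also went from 0.393 to 0.121 in males, as 1.44% of promoters did by the same rule, and from 0.330 to 0.244 in females. Both marks were thus lower there in the male KO libraries. The row was singled out by its high Het values, and both comparison sets were chosen on Het level alone. Such a choice favours a fall in KO, so these shares do not show how rare the drop was. In females the log2 ratios after adding 0.1 were -0.41 for H3K9me3 and -0.32 for H3K27me3, falls of less than 2-fold. The second Atf7ip row had H3K9me3 of 0.039 and 0.047 in male Het and KO and 0.104 and 0.074 in female Het and KO. RNA of the first row was also higher in KO, by 0.47 (SE 0.22) in males and 0.46 (SE 0.22) in females on the log2 scale, without passing. How reads were shared between these entries is not stated, and a link between promoter marks and RNA was not tested.

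Suv39h1 showed the widest gap between the sexes. Its promoter was listed at 0 for H3K9me3 in male Het and was at 0.019 in male KO, but at 0.355 in female Het and 0.311 in female KO. H3K27me3 was at 0.122 and 0.084 in male Het and KO, and at 0.411 and 0.302 in female Het and KO. Females were thus higher in both marks and also in RNA, and no test was possible with 1 library each. Suv39h1 is X-linked, and the values were used as deposited, with no correction for the number of X chromosomes. The share of all promoters that were higher in females in both marks was not counted.

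At the Setdb1 promoter H3K9me3 was at 0.124 in male Het and 0.205 in male KO, and at 0.168 and 0.068 in females, opposite in direction between the sexes. Ehmt2 was listed at 0 in Het of both sexes. In soma all 11 rows had more H3K9me3 than in male Het germ cells, between 0.394 (Ehmt1) and 0.855 (Trim28), as did 93.4% of all promoters. None reached RPKM 1 for the 2-fold rule in this comparison, in which 81.9% of 4306 promoters were past 2-fold and 79.4% were lower in germ cells. The median over all promoters was 0.721 RPKM in the soma library and 0.127 in male Het, so the whole scale was shifted between these libraries.

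**Figure D5:**
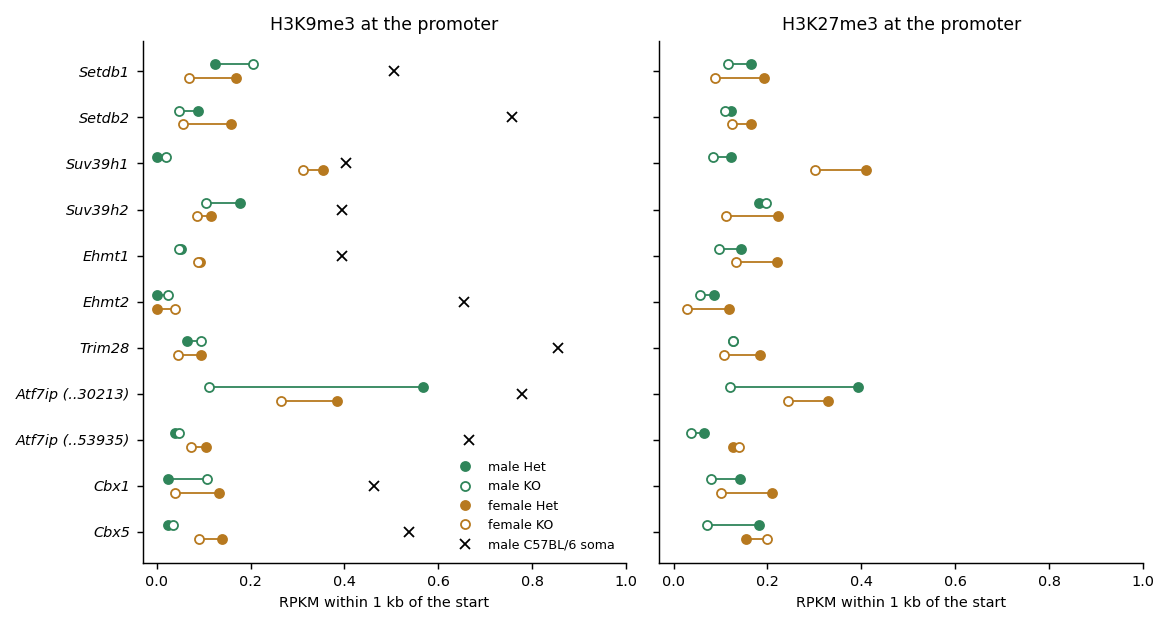
H3K9me3 (left) and H3K27me3 (right) at the promoters of the 11 rows in RPKM, 1 library per point; filled circles are Het, open circles KO, joined by lines, and crosses are C57BL/6 male soma. The first Atf7ip row drops in male KO for both marks, Suv39h1 is higher in females, and soma is higher at every row for H3K9me3.

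Among 46 other genes of H3K9 methylation (47 rows, all tested), 0 were called between KO and Het in males, in females, over both sexes or in the test of a different KO effect between the sexes. At an unadjusted p under 0.05 there were 2, 10, 5 and 3 of the 47 rows, beside 4.55%, 12.4%, 12.6% and 3.65% of all genes. Between female and male Het, 9 of 47 rows were called, 5 higher and 4 lower in females, beside 31.9% of all genes (17.6% higher and 14.3% lower), so calls were no more frequent in this list than among all genes. Chd3, a NuRD remodeller that binds TRIM28, was at 23.2 RPKM in female and 6.86 in male Het, higher by 1.65 on the log2 scale (SE 0.16, adjusted p = 1.79e-05 by limma). Atf7ip2, the paralogue of Atf7ip, was higher by 1.12 (SE 0.23, adjusted p = 0.00317), at 16.8 against 6.73 RPKM. The H3K9 methyl reader Cdyl was higher by 0.39 (SE 0.11, adjusted p = 0.0144). The HP1 gamma gene Cbx3 was lower, with a difference of -0.59 (SE 0.13, adjusted p = 0.00528), at 17.7 against 26.9 RPKM. The H3.3 chaperone Daxx (-0.47, SE 0.11, adjusted p = 0.00743) and the demethylase Kdm1a (-0.40, SE 0.11, adjusted p = 0.0181) were lower too. The other 3 called, named after their values were seen, were the X-linked demethylase Phf8 (1.00) and the HUSH subunit Tasor (0.42), both higher, and the modifier Sumo2 (-0.63). By role, readers and HP1 had 1 higher and 1 lower of 5, other methyltransferases and their partners 1 higher of 10, KAP1 family and NuRD genes 2 higher and 1 lower of 15, chaperones 1 lower of 5, and demethylases 1 higher and 1 lower of 12 rows.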

How the data were processed

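The submitters' processing notes name BWA and mm9 for the RNA-seq and ChIP-seq libraries and SAMtools for RNA-seq; versions, the read counter and the scaling total are not given there. All values are RPKM as deposited by the authors, per the file headers, per Ensembl gene for RNA and within 1 kb on either side of the Ensembl start for ChIP. Low values did not all fall on shared steps, although some member promoters shared a value, such as 0.047 RPKM for H3K9me3 in male KO. Reads were not recovered, so depth is unknown, as is the number of reads behind the low promoter values.

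From the deposited RPKM, log2(RPKM + 1) was fitted with limma 3.58.1 in R 4.3.3 (lmFit, eBayes with trend) over 4 group means of 12 libraries, for the 13518 genes that reached RPKM 1 in 2 or more of them. Het1 minus Het2 came from a fit of 6 groups. A gene was called at a two-sided p under 0.05 after Benjamini-Hochberg adjustment over all genes tested. WT and C57BL/6 libraries stayed outside the fit. ChIP had 1 library per group and no test: a 2-fold change after adding 0.1, in the same direction in both sexes, at RPKM 1 or more. No RNA libraries had identical values, and 0 columns of per-sample values lacked a sample. DNA methylation, repeat families and the total H3 library were not used here. The script was tested on simulated data.

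Named were all 10 genes and, of the 46 other pathway genes, those called in a contrast, at most 6 by smallest adjusted p. The marker lists were germ cells, male germ cells, meiotic entry, Y-linked genes, Sertoli, Leydig, pregranulosa, stroma, endothelium, macrophage and erythroid cells. Members and lists were chosen with earlier results of these data known. Alternatives were another pseudocount, no filter, median centring, quantile normalization, a replicate block, Het1 or Het2 alone, added WT and leaving out each library; counts of libraries that do not overlap, and promoters at RPKM 0.25 or more, were added after the values were seen.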

Additional observations from a re-analysis of the deposited data

How the results depend on the processing

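Depth is unknown, so no interval on any level could be given. No called value changed sign under any alternative run. Of the 11 rows, those called between KO and Het were 0 in males, females and over both sexes; over both sexes 1 was called with medians centred and 1 with WT added, and leaving out 1 library gave 0 to 1 in males and over both sexes. Between the sexes in Het 3 were called, 4 with the replicate block or with WT added, 2 with no filter or after quantile normalization, 0 with Het1 alone, 1 with Het2 alone and 2 to 3 without 1 library. Of the pathway rows, 0 were called in females and over both sexes, and 0 to 2 without 1 library; 9 were called between the sexes, 17 with the replicate block, 1 with Het1 alone, 3 with Het2 alone and 5 to 13 without 1 library (5 without male Het2 replicate 1).

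Over all genes, calls in males were 83, and 185 with no filter, 36 with Het1 alone, 39 with Het2 alone and 29 to 88 without 1 library. In females they were 55, and 30 with a pseudocount of 0.1, 140 with no filter, 23 with medians centred, 12 after quantile normalization, 91 with the replicate block, 8 with Het1 alone, 2 with Het2 alone and 3 to 164 without 1 library (140 higher and 24 lower without female Het2 replicate 1). Over both sexes they were 141, and 310, 44 and 54 with no filter, Het1 alone and Het2 alone, and 53 to 256 without 1 library. For a different KO effect between the sexes they were 7, and 0 with a pseudocount of 0.1, 64 with no filter (17 higher, 47 lower), 13 with medians centred, 13 after quantile normalization, 11 with the replicate block, 1 with either Het alone, 13 with WT added and 1 to 10 without 1 library. Between the sexes in Het they were 4312, and 1159 and 1449 with Het1 and Het2 alone, 3218 to 4375 without 1 library, and with medians centred 1955 higher and 2407 lower against 2373 and 1939. For Het1 minus Het2 they were 2, and 0 with no filter and 0 to 3 without 1 library. The cause of these shifts was not tested. Centring medians moved the KO minus Het difference by a median of -0.14 over genes in females, which took Cbx5 there from 0.10 to -0.04. The labels do not say what a replicate number stands for, and with 2 numbers the pairing was not taken as given. Over 15 pairs of Het and KO groups the deviations of same-numbered libraries correlated at -0.04 to 0.56, above 0.1 in 14 of them. Het and KO libraries with the same number thus shared variation, and the WT libraries were outside this count. With the replicate block Ehmt2 was added to the members called between the sexes (adjusted p = 0.0283 by limma).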
